A study of Mus musculus with 12 samples.

Results

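Interferon response genes are the genes that cells switch on when interferons, the cytokines of antiviral and antimicrobial defence, bind their receptors. A set of 35 of them was taken by gene name from a deposited expression table of 47069 genes, measured in 12 RNA sequencing libraries of mouse B cell precursors. The precursors grew from hematopoietic stem cell cultures in Iscove's medium with IL7, and the libraries form 4 groups of 3. The sorted controls (library numbers 242, 249 and 251, genotype given as control, untreated) and the β-catenin group (244, 255 and 262, genotype bCat-lox(Ex3), untreated) were sorted on B220, the B lineage form of CD45, before RNA isolation. These latter cells come from Mb1-Cre x Catnb lox(ex3) mice, in which a recombinase active from early B lineage stages removes exon 3 of Catnb, also called Ctnnb1. Without that exon GSK3 cannot phosphorylate β-catenin for its degradation and the protein accumulates, although the sample titles read KO. The untreated and the inhibitor groups (242, 249 and 251 in each) are unsorted wildtype cultures kept overnight without or with 40 nM LY2090314, an inhibitor of GSK3. Neither age nor the Cre status of the controls is labelled. Separate animals are not named either. Xist stood at 205 to 295 FPKM in the 3 libraries numbered 242, where Y-linked Ddx3y was at 0, and at 0.0716 to 0.176 in those numbered 249 and 251, which had Ddx3y at 13.6 to 37.7. Each of these groups therefore mixes libraries that differ in sex-linked genes, and p-values here reflect the spread between libraries.

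Type I interferons signal through IFNAR1 and IFNAR2 and the kinases JAK1 and TYK2 to a complex that contains STAT2 and IRF9 and binds the interferon-stimulated response element (ISRE) in promoters. Interferon gamma signals through IFNGR1 and IFNGR2 and the kinases JAK1 and JAK2, acts through gamma-activated sites (GAS) and induces IRF1. In B cell precursors type I interferon is known to oppose the growth signal of IL7.

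The values are FPKM, fragments per kilobase of transcript, scaled to the counted fragments of the library, and the libraries held 31.9 to 49.8 M counted fragments. A fold change is given as log2FC, the group mean of log2(FPKM + 1) minus that of the control group, with its standard error (SE), a scale that understates changes of low genes. A gene was tested with limma when at least 3 libraries of a comparison reached 1 FPKM, and called at a Benjamini-Hochberg adjusted p under 0.05 over all genes tested. Some libraries stood apart. Library 244 of the β-catenin group had 83.2 FPKM summed over 12 B cell precursor markers, against 2381 and 1813 in libraries 255 and 262 and 6325 to 6744 in the sorted controls. Library 244 also held Xist (169 FPKM) together with Ddx3y (19.5 FPKM), a combination found in none of the other 11 libraries. Both unsorted libraries numbered 249 carried myeloid transcripts, with 7198 and 7079 FPKM summed over 12 neutrophil markers against 41.1 to 461 in the other unsorted libraries. Fewer cells of a type and less RNA per cell cannot be told apart in bulk samples.

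Promoter sequence was compared first, because the ISRE and GAS are the elements through which the pathway acts. RefSeq promoter windows (GRCm38.p6, 250 bases before to 50 after the start) were matched by symbol for 29 of the 35 genes, in 35 windows. The ISRE letters GAAANNGAAA, searched on both strands, were present in 15 of the 35 windows and in 3.44% of all 32851 windows. The GAS letters TTCNNNGAA were present in 9 of the 35 windows and in 8.3% of all windows. CTTTGA, the core that TCF/LEF proteins, the DNA-binding partners of β-catenin, recognise, was present in 6 of the 35 windows and in 16% of all windows. The 120 bases before the start are printed 5′ to 3′ on the gene's strand for 6 genes that carry the results below. They are the ISG15 modifier, the GAS gene Irf1, 2 GTPase genes that rose with stabilised β-catenin and 2 GTPase genes that fell. Capitals mark ISRE and GAS letters on either strand, and neighbouring ISRE matches in Isg15 and Gbp3 overlap.
Isg15, chr4:156200819-156200938, minus strand: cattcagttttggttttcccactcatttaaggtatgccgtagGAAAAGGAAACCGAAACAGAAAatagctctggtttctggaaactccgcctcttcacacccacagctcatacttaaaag
Irf1, chr11:53769894-53770013, plus strand: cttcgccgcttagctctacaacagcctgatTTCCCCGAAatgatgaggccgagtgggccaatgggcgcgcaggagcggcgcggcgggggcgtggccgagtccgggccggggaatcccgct
Igtp, chr11:58199436-58199555, plus strand: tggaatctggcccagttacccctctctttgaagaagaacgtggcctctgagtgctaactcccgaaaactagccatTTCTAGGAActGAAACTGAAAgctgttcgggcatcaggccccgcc
Irgm2, chr11:58214857-58214976, plus strand: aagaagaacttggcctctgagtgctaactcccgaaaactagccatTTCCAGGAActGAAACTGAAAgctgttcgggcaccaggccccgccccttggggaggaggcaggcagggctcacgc
Gbp3, chr3:142559924-142560043, plus strand: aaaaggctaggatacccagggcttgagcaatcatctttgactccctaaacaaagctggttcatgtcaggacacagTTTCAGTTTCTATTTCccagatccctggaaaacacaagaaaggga
Gbp7, chr3:142530216-142530335, plus strand: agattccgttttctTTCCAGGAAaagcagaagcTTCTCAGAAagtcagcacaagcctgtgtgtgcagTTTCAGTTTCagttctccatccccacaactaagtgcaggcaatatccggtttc

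The printed windows of Isg15 and Gbp3 hold ISRE letters, that of Irf1 a GAS, and those of Igtp, Irgm2 and Gbp7 both. Further upstream the Igtp and Irgm2 windows share an identical run of 55 bases. The Irgm2 window ends at the RefSeq start, which lies inside the longer span of the annotation used for coordinates here (GENCODE). Of the 15 genes with ISRE letters, 9 were higher in the β-catenin group, 2 were lower, 3 were not called and 1 was not tested, where 18.6% of all genes tested were higher and 17.7% lower. The 9 include Ifit1 and Ifit3, which passed the filter through the β-catenin libraries alone, and without them 7 of 12 were higher. Of the 14 genes whose windows lacked them, 6 were higher, 1 was lower and 7 were not called. Gbp3 and Gbp7 were the 2 lower genes with ISRE letters. A match is a description of letters and not a binding site.

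Stabilised β-catenin was compared with the sorted controls to ask how it changes gene expression in these precursors. Most tested interferon response genes were higher, with the factor gene Irf7 and the RNA sensor gene Dhx58 in front, while Gbp3, Gbp7 and the immunoproteasome gene Psmb9 were lower. Of the 35 genes 33 could be tested, and 18 were higher, 3 lower and 12 not called, where 18.6% of all 12813 genes tested were higher and 17.7% lower. Ifit1 and Ifit3 passed the filter through the β-catenin libraries alone, and without them 16 of 31 genes were higher and 3 lower. The median log2FC of these 31 was 0.67, against -0.02 over all genes tested. Mx1 and Rsad2, both classical antiviral genes, were too low to test. Mx1 had 0.458 to 0.661 FPKM in the controls and 0.538 to 2.1 in the β-catenin libraries, and Rsad2 had 0.0448 to 0.367 and 3.48, 0.882 and 1. Centring on the median moved the median of all genes from -0.02 to -0.14 and quantile normalization to -0.11. The share of higher genes among all calls was 51.3% as fitted, 37% with median centring and 40.8% with quantile normalization. Of the interferon response genes 16 were higher with median centring and 15 with quantile normalization, and 3 were lower with each.

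**Figure D1:**
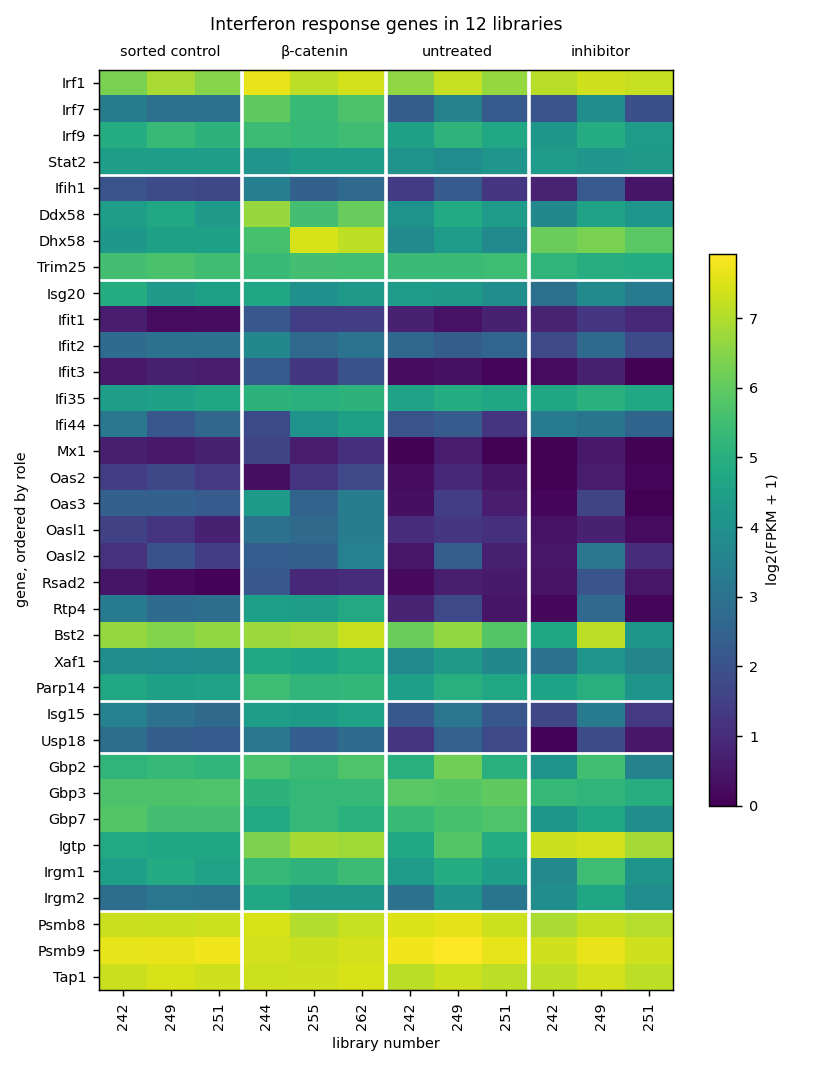
Heat map of log2(FPKM + 1), by colour, for the 35 interferon response genes (rows, ordered by role, with white lines between roles) in the 12 libraries (columns, labelled by library number). Irf7, Dhx58, Igtp and Rtp4 are brighter in the 3 β-catenin columns than in the 3 sorted control columns, and the antiviral effector genes are mostly brighter in column 249 than in the other columns of the untreated and inhibitor groups.

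Among the transcription factors, Irf7 rose most. IRF7 is the factor that amplifies type I interferon production, and its gene is itself induced by interferon. Irf7 (chromosome 7, 141262706 to 141266481, GRCm38) had 8.99, 6.57 and 6.98 FPKM in sorted controls 242, 249 and 251, and 62, 40.5 and 51.3 FPKM in β-catenin libraries 244, 255 and 262. The groups did not overlap, and Irf7 was higher by a log2FC of 2.61 ± 0.189 (SE; adjusted p = 0.0012). Phrf1 overlaps Irf7 on the opposite strand at up to 77.2 FPKM, and without a stated strand setting their reads cannot be told apart there. Irf1, induced by interferon gamma through its GAS, stood at 79.5, 119 and 89.2 FPKM in the controls and reached 201, 141 and 167 with β-catenin stabilised. All β-catenin libraries lay above all controls (log2FC 0.82 ± 0.192, adjusted p = 0.0217), but the call was lost without control 242 (adjusted p = 0.0759), control 251 (0.0882) or library 262 (0.0705). Stat2 and Irf9 encode parts of the type I complex. Stat2 had 20.8, 20.4 and 20.6 FPKM in the controls and 16.4, 20.9 and 20.6 in the β-catenin libraries, which overlapped (log2FC -0.10 ± 0.115, adjusted p = 0.536). Irf9, which shares its strand and part of its span with Rnf31, was not called either (log2FC 0.29, adjusted p = 0.117).

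The 3 sensors of viral RNA were higher as well. Dhx58 encodes LGP2, a helicase that regulates the other sensors, Ddx58 encodes RIG-I and Ifih1 encodes MDA5. Dhx58 (chromosome 11, 100694884 to 100704271) had 17.8, 21.8 and 22.3 FPKM in the controls and 47.9, 173 and 144 in libraries 244, 255 and 262. Library 244 was the lowest of the β-catenin group but above every control. Dhx58 had a log2FC of 2.32 ± 0.475 (adjusted p = 0.0151), which was 2.88 (adjusted p = 8.61e-05) without library 244. Its call was lost without control 242 (adjusted p = 0.0618), control 249 (0.0558), control 251 (0.0619) or library 262 (0.0577). Ddx58 ran in the other order, with 20.1, 25.5 and 18.1 FPKM in the controls and 104, 45.9 and 66.9 in libraries 244, 255 and 262. It was higher without overlap (log2FC 1.66 ± 0.304, adjusted p = 0.0109; adjusted p = 0.0557 without control 251), and without library 244 its log2FC was 1.36 (adjusted p = 0.0036). Ifih1 rose from 3.19, 2.59 and 2.32 FPKM to 9.71, 4.46 and 5.47 (log2FC 0.97 ± 0.273, adjusted p = 0.037; 0.69, adjusted p = 0.0218, without library 244). Its call was lost without control 242 (adjusted p = 0.0826), control 249 (0.11), control 251 (0.128) or library 262 (0.0819), and also with quantile normalization, median centring, voom, no filter or all 12 libraries in the fit. Trim25, a ubiquitin ligase that activates RIG-I, overlapped between groups (log2FC -0.08, adjusted p = 0.517).

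Of 16 antiviral effector genes 14 were tested, 8 were higher and none was lower (8 higher and 0 lower at an unadjusted p under 0.05, and 7 higher and 0 lower with voom). Each of these counts of higher genes includes Ifit1 and Ifit3, which passed the filter through the β-catenin libraries alone. Among all genes tested 18.6% were higher and 17.7% lower. Oasl1, a relative of the oligoadenylate synthetases that in mouse restrains translation of Irf7, had 1.87, 1.3 and 0.659 FPKM in the controls and 6.88, 5.73 and 9.32 in the β-catenin libraries. Rtp4, a receptor transporter protein induced by interferon, had 8.58, 5.82 and 6.27 FPKM in the controls and 21.4, 20.9 and 26.4 in the β-catenin libraries. Neither gene's groups overlapped (Oasl1 log2FC 1.88 ± 0.263, adjusted p = 0.00526; Rtp4 log2FC 1.61 ± 0.17, adjusted p = 0.00281). The Rtp4 call was lost when all 12 libraries shared the estimate of spread (adjusted p = 0.0614). Ifit1 and Ifit3, whose proteins bind foreign RNA, were below 1 FPKM in every control. Ifit1 reached 3.47, 1.8 and 1.8 FPKM in the β-catenin libraries, and Ifit3 reached 3.92, 1.45 and 3.01. Ifit1 had a log2FC of 1.35 ± 0.249 (adjusted p = 0.011), which could not be tested without any 1 of the β-catenin libraries and was lost without control 249 (adjusted p = 0.0506) or control 251 (0.0571). Ifit3, which shares sequence with the near-identical Ifit3b, had a log2FC of 1.24 ± 0.279 (adjusted p = 0.0194), likewise untested without a β-catenin library and lost without control 242 (0.0735), 249 (0.0654) or 251 (0.0778). Xaf1, whose protein binds the apoptosis inhibitor XIAP, the ADP-ribosyltransferase gene Parp14, and Ifi35 rose by smaller amounts, with log2FC of 0.83, 0.70 and 0.55. Oasl2 also rose (log2FC 1.24, adjusted p = 0.0458), but leaving out any control, library 255 or library 262 ended its call. Library 244 stood apart for several effector genes that were not called. Ifi44 stood at 2.46 FPKM in library 244 and at 15.9 and 21.6 in libraries 255 and 262, against 3.43 to 8.02 in the controls. Without library 244 Ifi44 was called (log2FC 1.64, adjusted p = 0.00781), as was Bst2 (tetherin; log2FC 0.47, adjusted p = 0.0337). Ifit2 (5.78 to 7 FPKM in the controls, 5.59 to 12.1 in the β-catenin libraries), Isg20 (18 to 29 and 14.9 to 24.9) and Oas2 (1.49 to 2.31 and 0.247 to 2.36) overlapped between groups. Oas3, in contrast to Ifi44, was highest in library 244, at 18.8 FPKM against 4.74 and 9.06 in the others and 3.87 to 4.45 in the controls (SE of the log2FC 0.433, adjusted p = 0.117).

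The ISG15 system consists here of the ubiquitin-like modifier and the protease that removes it. Isg15 (chromosome 4, 156199424 to 156200818) stood at 10.5, 6.77 and 5.67 FPKM in the controls and rose to 20.8, 18.8 and 22.6 in libraries 244, 255 and 262, with no overlap. Its log2FC was 1.37 ± 0.216 (adjusted p = 0.0073), and it was called without each library in turn. Usp18, the ISG15 protease and a brake on IFNAR2 signalling, had 6.31, 4.02 and 3.93 FPKM in the controls and 8.09, 4.2 and 5.84 in the β-catenin libraries, which overlapped (log2FC 0.28, adjusted p = 0.44).

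The GTPase genes induced by interferon gamma moved in opposite directions. Immunity-related GTPases and guanylate-binding proteins attack vacuoles that hold intracellular microbes. Igtp (Irgm3; chromosome 11, 58199556 to 58207591) stood at 27, 24.4 and 25 FPKM in the controls and rose to 81, 117 and 109 in libraries 244, 255 and 262. Irgm2 (chromosome 11, 58199618 to 58222782) had 6.32, 7.61 and 7.34 FPKM in the controls and 26.1, 18.3 and 18 in the β-catenin libraries. Both were higher with no overlap (Igtp log2FC 1.95 ± 0.148, adjusted p = 0.00124; Irgm2 log2FC 1.41 ± 0.17, adjusted p = 0.00372). They overlap on the same strand in the annotation, so the split of reads between them is uncertain. Irgm1 rose from 21.2, 28 and 22.9 FPKM to 38.9, 34.9 and 41.9 (log2FC 0.67 ± 0.131, adjusted p = 0.0134), a call lost without control 242 (adjusted p = 0.0524), control 251 (0.0654), library 262 (0.0542) or with all 12 libraries in the fit (0.177). Gbp7 (chromosome 3, 142530342 to 142550149) fell from 55.2, 45.8 and 45.9 FPKM to 28, 38 and 32.7, and its neighbour Gbp3 (142560026 to 142573209) fell from 51.8, 51.4 and 52.7 to 33.6, 38.2 and 38.7. Both groups of values were apart (Gbp7 log2FC -0.57 ± 0.139, adjusted p = 0.0249; Gbp3 log2FC -0.49 ± 0.0831, adjusted p = 0.00886). Gbp7 lost its call without control 242 (adjusted p = 0.0857), control 249 (0.0686), control 251 (0.0766) or library 262 (0.0786), and Gbp3 without control 251 (0.0522). Gbp2, at the far end of the same gene cluster (chromosome 3, 142620602 to 142638008), was slightly higher instead (log2FC 0.38, adjusted p = 0.0325), a call lost without any control or library 262.

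**Figure D2:**
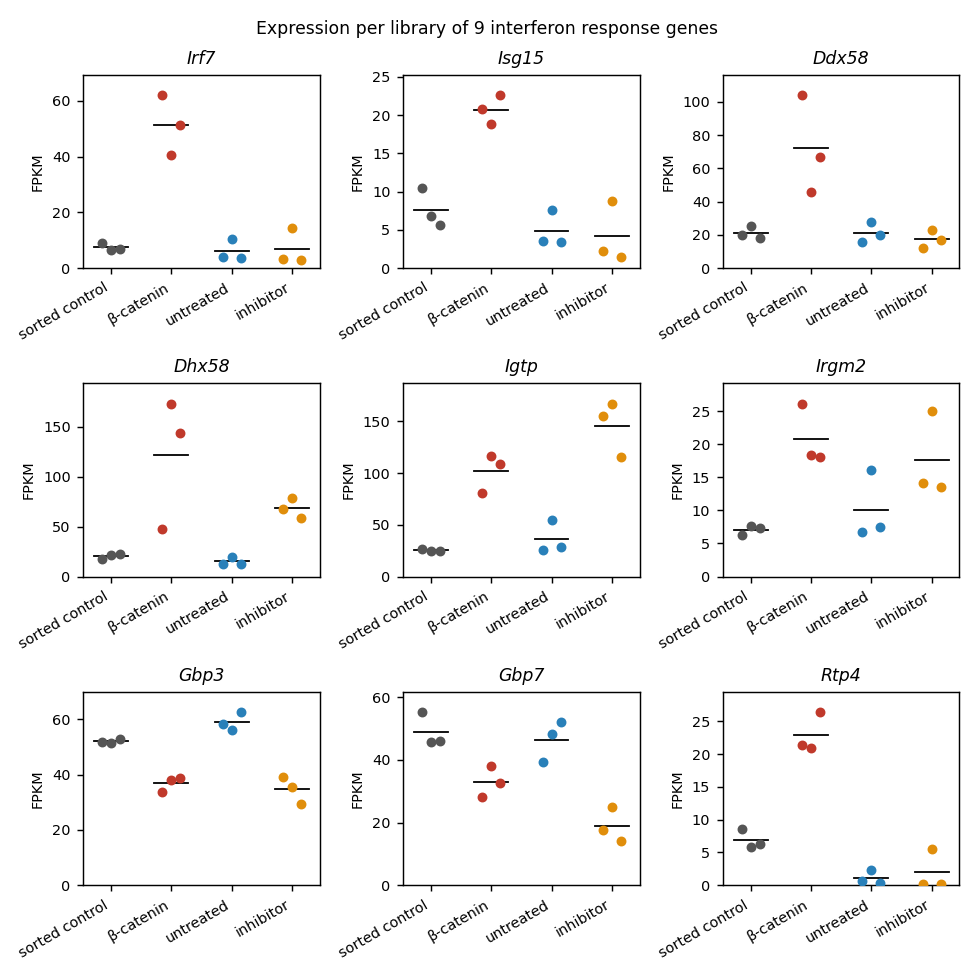
FPKM (linear axes from 0) in each library for 9 interferon response genes, by group on the x axis; points are libraries in the order of their numbers and lines are group means of 3 libraries. Irf7, Isg15, Ddx58 and Rtp4 are raised in the β-catenin group, Dhx58 and Igtp in both the β-catenin and the inhibitor groups, and Gbp3 and Gbp7 are lower in both.

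The antigen processing genes, already among the most abundant of the 35, changed little. Psmb9, a catalytic subunit of the immunoproteasome, stood at 197, 201 and 216 FPKM in the controls against 166, 156 and 167 with β-catenin stabilised (log2FC -0.33 ± 0.0737, adjusted p = 0.0199). The groups were apart, but the call was lost without control 242 (adjusted p = 0.0571), control 249 (0.0686), control 251 (0.0874) or library 262 (0.0599). Psmb8 and the peptide transporter gene Tap1 were not called (log2FC -0.05 and 0.02). Psmb9 and Tap1 overlap at their ends on opposite strands.

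Leaving out each library in turn left 9 to 21 of these genes called, with 9 without control 251, 11 without library 262, 12 without control 242 and 13 without control 249. Irf7, Ifi35, Oasl1, Rtp4, Xaf1, Parp14, Isg15, Igtp and Irgm2 were called in all 6 of these fits. Without library 244, 18 genes were higher and 3 lower of 31 tested, against 19.6% higher and 21.4% lower among all genes. Markers of other cells moved with the β-catenin comparison, in which 18.6% of all genes tested were higher and 17.7% lower. Of 14 markers of NK and innate lymphoid cells (ILC), 13 were higher, and their summed level was 819 to 3817 FPKM in the β-catenin libraries and 21.3 to 47.7 in the controls. Of these 14, 6 passed the filter through the β-catenin libraries alone, and the other 8 were all higher. Of 9 tested T cell markers 8 were higher, with sums of 554 to 1165 against 70.5 to 72.9 FPKM, and 5 passed through 1 group, which leaves 3 of 4 higher. None of these markers was at 0 in every library of either group. Monocyte and macrophage markers summed to 201 to 419.6 against 20.5 to 36.6 FPKM, with 4 of 7 tested higher (Ly6c2, Ccr2, Lyz2 and Mpeg1) and Csf1r lower. Mast cell and basophil markers summed to 43.2 to 336 against 1.8 to 26.8 FPKM (3 of 7 higher). Neutrophil markers summed to 26.4 to 525 against 1.81 to 11.5 FPKM, highest in library 244. Of 6 tested 3 were higher, and of the 4 that did not pass through 1 group only Ltf was. Of the 12 B cell precursor markers 2, Cd79b and Blnk, were called lower. Plasmacytoid dendritic cells are strong producers of type I interferon, and their markers other than Bst2 summed to 217, 799.8 and 1170.1 FPKM in libraries 244, 255 and 262 against 252 to 329 in the controls. Ly6d made up most of this sum in the controls and in libraries 255 and 262 (75.4, 676 and 1023 against 136 to 222 FPKM), and without it the sums were 142, 124 and 147 against 99.3 to 116. Of 7 tested markers of that list, Bst2 included, Ccr9 and Pltp were higher and Cd300c and Tcf4 lower. Ccr9 passed the filter through the β-catenin libraries alone and Cd300c through the controls alone. Of the other 5, Pltp was higher and Tcf4 lower. The part of these cells in the interferon response genes was not tested.

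The inhibitor was compared with untreated cultures to ask what blocking GSK3 does overnight. Dhx58 and Igtp rose and Gbp3 and Gbp7 fell, as each had with stabilised β-catenin, while Irf7, Isg15 and Ddx58, which had risen with stabilised β-catenin, were not called. Of 27 genes tested, 2 were higher and 4 lower, against 8.47% higher and 9.6% lower among all 12685 genes. Without untreated 251 the number called was 3. The median log2FC was -0.31 for the 27 and -0.03 for all genes. The library numbers were taken to pair the untreated and inhibitor cultures. With the number as a block, 5 genes were higher (Dhx58, Igtp, Ifi44, Irgm2 and Irf1) and 8 lower (Gbp7, Gbp2, Usp18, Isg20, Gbp3, Psmb8, Trim25 and Psmb9), where 14.1% of all genes were higher and 16% lower. Without both unsorted libraries numbered 249, 5 of 24 tested genes were higher and 6 lower, against 9.51% and 10.7% of all genes. Of 12 B cell precursor markers 10 were lower with the inhibitor and 1 higher, with sums of 2162 to 3506 FPKM against 6026 to 8313 untreated. The part of this shift in the interferon response genes was not tested.

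Dhx58 stood at 12.9, 19.7 and 12.9 FPKM in the untreated libraries 242, 249 and 251 and at 67.8, 79 and 59.1 in the inhibitor libraries. Igtp stood at 25.9, 55.1 and 28.4 FPKM untreated and at 155, 167 and 116 with the inhibitor. Neither gene's groups overlapped, and each rose in all 3 pairs (Dhx58 log2FC 2.12 ± 0.195, adjusted p = 0.00104; Igtp log2FC 2.04 ± 0.298, adjusted p = 0.0061). Irgm2, which overlaps Igtp, had 6.76, 16.1 and 7.42 FPKM untreated and 14.1, 25 and 13.6 with the inhibitor. It rose within each pair while the groups overlapped, and was called with the block (log2FC 0.78, adjusted p = 0.203 without and 0.0061 with the block) and without both libraries numbered 249 (log2FC 0.88, adjusted p = 0.0147). Gbp7 fell from 39.3, 48.2 and 52 FPKM to 17.5, 25.1 and 14, and Gbp3 from 58.2, 56 and 62.5 to 39, 35.5 and 29.5. Both fell in all 3 pairs with no overlap (Gbp7 log2FC -1.28 ± 0.221, adjusted p = 0.011; Gbp3 log2FC -0.76 ± 0.125, adjusted p = 0.0096). Gbp7 lost its call without untreated 251 (adjusted p = 0.0528). Gbp2 had 31.3, 73.3 and 31.6 FPKM untreated and 15.8, 45.4 and 10.7 with the inhibitor, lower in each pair and called with the block (log2FC -1.04, adjusted p = 0.267 without and 0.0036 with it). Gbp2 was also called without both libraries numbered 249 (log2FC -1.21, adjusted p = 0.00706) and without inhibitor 249 (log2FC -1.61, adjusted p = 0.0409). Irgm1 was lower in pairs 242 and 251 and higher in pair 249, going from 19.3, 29.1 and 20.4 FPKM to 12.2, 42.9 and 16.1 (log2FC -0.13, adjusted p = 0.874; -0.47, adjusted p = 0.12, without both libraries numbered 249).

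Psmb8 fell from 181, 193 and 159 FPKM to 121, 146 and 131, and Trim25 from 41.1, 40.9 and 43.1 to 35.3, 29.9 and 29.1. These were small changes near the threshold (Psmb8 log2FC -0.42 ± 0.114, adjusted p = 0.0497; Trim25 log2FC -0.40 ± 0.107, adjusted p = 0.0465). Trim25 lost its call without any library in turn (adjusted p 0.0527 to 0.145), and Psmb8 without any but inhibitor 249 (0.0647 to 0.161). Other scalings ended both calls as well. Of the 8 effector genes tested 0 were called with limma on log2 values in the fit without the block. At an unadjusted p under 0.05 there were 2, Isg20 lower and Ifi44 higher, and with voom 1, Isg20, was called. Isg20, an exonuclease for viral RNA, had 19.8, 18.3 and 14.2 FPKM untreated and 6.65, 12.5 and 8.43 with the inhibitor, with no overlap (log2FC -0.88, adjusted p = 0.0502). Isg20 was called with the block (adjusted p = 0.0157) and with voom (0.048).

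Pair 249 ran against the other pairs for several genes. Irf7 had 4.03, 10.6 and 3.75 FPKM untreated and 3.22, 14.5 and 2.83 with the inhibitor, so that it was lower with the inhibitor in pairs 242 and 251 and higher in pair 249 (log2FC -0.05 ± 0.619, adjusted p = 0.968; -0.28, adjusted p = 0.444, without both libraries numbered 249). Isg15 behaved alike, with 3.5, 7.58 and 3.41 FPKM untreated and 2.2, 8.8 and 1.51 with the inhibitor (log2FC -0.37 ± 0.554, adjusted p = 0.7; -0.65, adjusted p = 0.135, without that pair). Bst2 had 69.7, 98.5 and 54.5 FPKM untreated and 24.7, 140.0 and 17.2 with the inhibitor, and was called lower without both libraries numbered 249 (log2FC -1.53, adjusted p = 0.00305). Irf1 rose in each pair, from 97.4, 150.2 and 100.3 to 135, 162 and 149 FPKM, and was called with the block (log2FC 0.38, adjusted p = 0.206 without and 0.0395 with it). Stat2 had 15.3, 13.5 and 16.5 FPKM untreated and 19.4, 16.5 and 18.2 with the inhibitor (log2FC 0.24 ± 0.127, adjusted p = 0.251). Usp18 fell in all 3 pairs, from 1.31, 4.57 and 2.33 to 0.047, 2.56 and 0.411 FPKM, which passed the test with the block (log2FC -1.01, adjusted p = 0.0187). Of the 31 genes that reached 1 FPKM in an inhibitor library, 27 were highest in library 249, as were 24 of 30 in the untreated group. Among all genes these libraries were the highest for 36.5% and 35.2%. Their monocyte and macrophage markers summed to 3434 and 2662 FPKM against 45.7 to 163 in the other unsorted libraries, and the part of these cells in the interferon response genes was not tested.

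**Figure D3:**
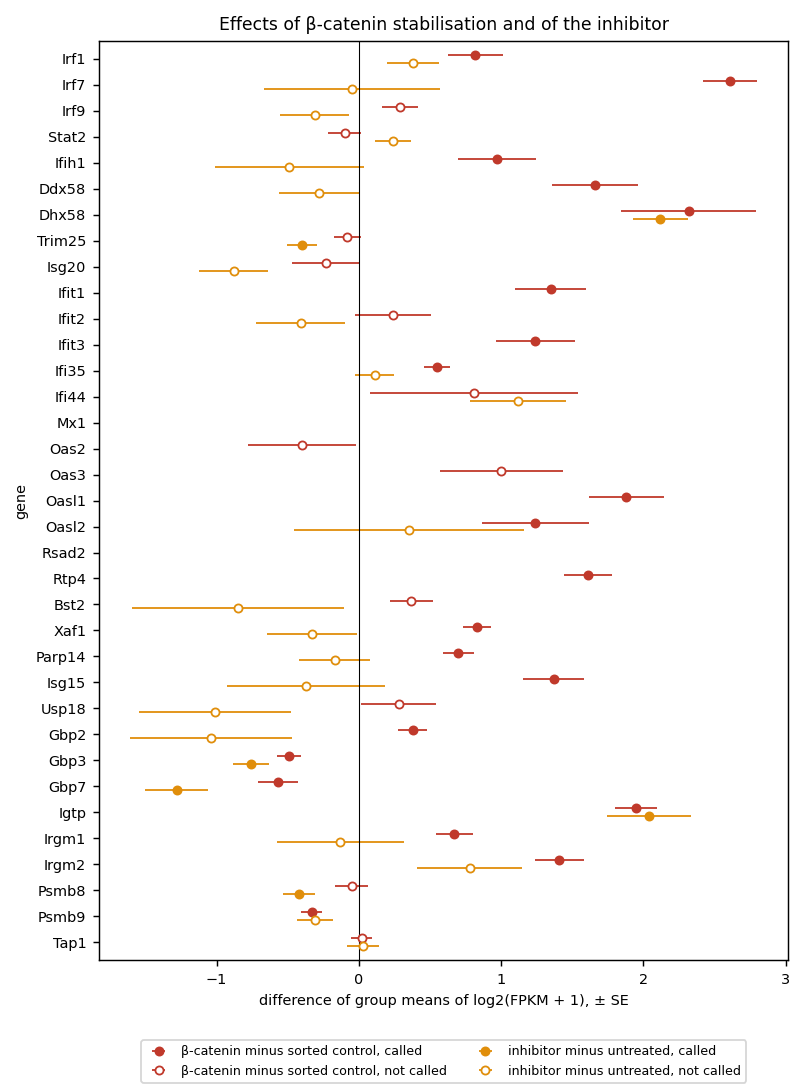
Log2FC with SE (x axis, change in mean log2(FPKM + 1), 3 libraries a group) for each interferon response gene (y axis) in the β-catenin comparison (red) and the inhibitor comparison (orange); filled points were called at an adjusted p under 0.05 and genes without a point were not tested. Dhx58 and Igtp lie near 2 in both comparisons, whereas Irf7 lies at 2.61 in the first and at -0.05 in the second.

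The untreated cultures were also compared with the sorted controls, which differ in the sort and in the overnight culture together. A small number of antiviral genes were lower in the unsorted overnight cultures. Of 31 genes tested, 0 were higher and 3 lower, against 4.29% higher and 4.01% lower among 12513 genes (limma; 1 higher and 6 lower at an unadjusted p under 0.05, 0 higher and 4 lower with voom). Oas2, among the 6 and the 4 but not the 3, passed the filter through the sorted controls alone. Leaving it aside, 3 of 30 were lower. Rtp4 fell from 8.58, 5.82 and 6.27 FPKM after sorting to 0.675, 2.33 and 0.375 in the untreated cultures. Oas3, an oligoadenylate synthetase, stood at 4.36, 4.45 and 3.87 FPKM and at 0.264, 1.76 and 0.524. The groups were apart for both (Rtp4 log2FC -1.98 ± 0.342, adjusted p = 0.0245; Oas3 log2FC -1.58 ± 0.3, adjusted p = 0.0289). Stat2 was lower by a smaller amount (15.3, 13.5 and 16.5 FPKM untreated; log2FC -0.43 ± 0.1, adjusted p = 0.0478). Each of the 3 calls was lost under some single omissions, and the number called was 0 without control 242, 249 or 251 or untreated 251. Rtp4 was lost without control 242 (adjusted p = 0.0916), 249 (0.0822), 251 (0.115) or untreated 251 (0.0597), and Oas3 without control 242 (0.102), 249 (0.109), 251 (0.124) or untreated 251 (0.0758). Stat2 was lost without any library (0.0637 to 0.177). Without untreated 249, 6 of 31 genes were lower, against 4.33% of all genes. Among the 6, Oas2, Rtp4 and Oas3 then reached 1 FPKM in the sorted controls alone. Without both libraries numbered 249 none was called (10 lower at an unadjusted p under 0.05). Irf1 (log2FC 0.27, adjusted p = 0.436), Irf7 (log2FC -0.37, adjusted p = 0.513) and Isg15 (log2FC -0.60, adjusted p = 0.255) were not called. Mast cell and basophil markers summed to 140.3 to 1285 FPKM untreated against 1.8 to 26.8 sorted, with Mcpt8 at 0 in every sorted control, and their part in these results was not tested.

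The difference between the β-catenin effect and the inhibitor effect was tested in a model of all 12 libraries. Irf7, Oasl1 and Ddx58 were raised more by stabilised β-catenin, while the effects on Dhx58 and Igtp were not told apart. Of 34 genes tested, 3 differed upward and 0 downward (limma; 12 upward and 0 downward at an unadjusted p under 0.05, 2 upward and 0 downward with voom), against 6.07% and 3.05% of 13861 genes. The 12 include Ifit3, which reached 1 FPKM in the β-catenin libraries alone and passed the filter through them. The share of upward calls over all genes was 66.5% as fitted, 51.9% with median centring and 55.3% with quantile normalization. The median of all genes moved from 0.00 to -0.13 and -0.10 under these scalings, and the same count of 3 genes was called under each. Oasl1 differed by 2.55 ± 0.342 (SE; adjusted p = 0.00312) on the log2 scale and was called without each library in turn. With the inhibitor it had 0.298, 0.643 and 0.175 FPKM against 0.995, 1.38 and 1.13 untreated, too low for a test of its own. Ddx58 had 15.8, 27.7 and 19.9 FPKM untreated and 12.1, 22.9 and 17 with the inhibitor, lower in each pair. Ddx58 differed by 1.94 ± 0.446 (adjusted p = 0.0265), and 7 of the 12 single omissions ended its call (lost without control 242 or 251, library 262, untreated 249 or 251, or inhibitor 242 or 251; adjusted p up to 0.073). Irf7 differed by 2.66 ± 0.713 (adjusted p = 0.0443), and 10 of the 12 omissions ended its call, all but those of library 255 and inhibitor 249 (adjusted p up to 0.104). With voom the Irf7 difference had an adjusted p of 0.0582. For Dhx58 the difference was 0.19 ± 0.553 (adjusted p = 0.858; 0.76 ± 0.264, adjusted p = 0.11, without library 244) and for Igtp -0.09 ± 0.364 (adjusted p = 0.9). Without both unsorted libraries numbered 249 the number of differing genes was 11 of 33 tested, all upward. Among all genes 7.13% were upward and 3.08% downward in that fit. The 11 include Isg15 (2.02, adjusted p = 0.00977), Bst2 (1.90, adjusted p = 0.00769) and Gbp2 (1.59, adjusted p = 0.00608). Without inhibitor 249 alone the number was 15 of 33, all upward and Ifit3 included, against 9.51% and 5.1% of all genes. The number was 1 without control 242 or 251, library 262, untreated 249 or 251, or inhibitor 242 or 251. Isg15 (1.74 ± 0.65, adjusted p = 0.12), Irf1 (0.44, adjusted p = 0.344) and Stat2 (-0.34, adjusted p = 0.214) did not pass with all libraries. In the same difference 13 of 14 NK and ILC markers (median 5.21) and 4 of 9 T cell markers were called upward. Among the 14, Klre1, Eomes and Prf1 reached 1 FPKM in the β-catenin libraries alone, which carried them through the filter. The part of NK, ILC and T cells in these results was not tested.

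Of the genes upstream, the interferons themselves were scarce. Of 21 interferon genes listed, 15 were at 0 in every library, and Ifng alone reached 1 FPKM. Ifng, the gamma interferon gene of NK and T cells, stood at 5.42, 0.299 and 2.23 FPKM in β-catenin libraries 244, 255 and 262 (308, 18 and 90 fragments), against 1 to 10 fragments in the sorted controls. It was at 0 in the unsorted libraries other than both numbered 249 (0.0775 FPKM untreated, 0.588 with the inhibitor). Ifnb1 was above 0 only in inhibitor library 249, at 0.14 FPKM. No interferon gene passed the filter, so none was tested.

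Receptor chains for interferon gamma moved in opposite directions in the β-catenin libraries. Of 9 receptor and kinase genes, 7 were higher with stabilised β-catenin and 1 was lower, against 18.6% and 17.7% of all genes tested. Ifngr1 rose from 120.3, 130.2 and 124 FPKM to 513, 232 and 407 in libraries 244, 255 and 262 (log2FC 1.54, adjusted p = 0.0109; adjusted p = 0.0538 without control 251; log2FC 1.29, adjusted p = 0.00585, without library 244). Ifngr2 stood at 36.2, 43 and 39.6 FPKM and at 3.86, 8.02 and 9, with no overlap (log2FC -2.41 ± 0.281, adjusted p = 0.0034). With the inhibitor Ifngr2 was the 1 gene of the 9 called, where 9.6% of all genes were lower, falling from 40.3, 42.3 and 45.8 to 4.8, 15.3 and 6.68 FPKM (log2FC -2.28 ± 0.362, adjusted p = 0.00821). It was called in both comparisons without each library in turn. Jak2 rose with stabilised β-catenin (log2FC 1.51, adjusted p = 0.00672). Ifnar1 was also higher there (log2FC 0.56, adjusted p = 0.0237), but any omission other than library 244 ended the call (adjusted p up to 0.0917). Between untreated and sorted cultures none of the 9 was called (3 at an unadjusted p under 0.05). In the difference of effects 4 were called upward and 0 downward, against 6.07% and 3.05% of all genes tested. Ifngr1 and Ifnar1 were among the 4 and lost their calls under 6 and 8 of the 12 single omissions.

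Of 11 tested genes of other STAT and IRF factors, 5 were higher and 1 lower with stabilised β-catenin, and 3 higher and 2 lower with the inhibitor. The shares over all genes were 18.6% and 17.7% in the first comparison and 8.47% and 9.6% in the second. Irf8, a factor of B cell and myeloid development, fell from 323, 301 and 294 to 84.6, 89.9 and 98.6 FPKM with stabilised β-catenin and from 431, 374 and 438 to 84.1, 97.4 and 118 with the inhibitor. Neither comparison overlapped (log2FC -1.74, adjusted p = 0.000328 and log2FC -2.05, adjusted p = 0.000479).

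Feedback genes went both ways. Socs3, an inhibitor of JAK signalling best known downstream of STAT3, fell from 148, 89.6 and 120.2 to 21.9, 26.5 and 31.9 FPKM with stabilised β-catenin and from 68, 70.3 and 62.7 to 4.97, 6.55 and 6.28 with the inhibitor. The groups were far apart in both (log2FC -2.10, adjusted p = 0.00269 and log2FC -3.30, adjusted p = 9.46e-05). Socs1, the inhibitor of interferon gamma signalling, rose with stabilised β-catenin from 32.1, 30.2 and 35.4 to 93.9, 121 and 113 FPKM (log2FC 1.71, adjusted p = 0.00104). With the inhibitor it had 70.3, 90.7 and 69.8 against 35.6, 67.8 and 52 FPKM, which was not called (log2FC 0.60, adjusted p = 0.143) but was without both libraries numbered 249 (log2FC 0.69, adjusted p = 0.0427). Of 12 tested negative regulators 4 were higher and 4 lower with stabilised β-catenin, and 2 lower and 10 not called with the inhibitor. Of 20 nucleic acid sensing genes in the table, 4 of 18 tested were higher and 2 lower with stabilised β-catenin, and 2 of 17 higher and 3 lower with the inhibitor. The 4 include Mb21d1, which passed the filter through the β-catenin libraries alone. For both lists the shares over all genes were 18.6% higher and 17.7% lower with stabilised β-catenin and 8.47% and 9.6% with the inhibitor. Tlr9, the receptor for unmethylated DNA, was lower in both (log2FC -1.75, adjusted p = 0.00771 and log2FC -2.07, adjusted p = 0.0061), and in the inhibitor comparison it passed the filter through the untreated libraries alone.

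Another 88 interferon-stimulated genes outside the 35, of which 86 were in the table, were counted the same way. With stabilised β-catenin 31 of 75 tested were higher and 3 lower, against 18.6% higher and 17.7% lower among all genes, and the median log2FC was 0.57. Of the 75, 3 passed the filter through a single group, among them Slfn1, which is counted as higher. Tgtp1, a further immunity-related GTPase whose reads can be shared with its close copy Tgtp2, rose from 1.97, 3.1 and 3.75 to 24.2, 34.3 and 32.2 FPKM (7.99-fold on the FPKM + 1 scale, adjusted p = 0.00122). Serpina3g, a serine protease inhibitor, rose from 11.9, 15.4 and 9.87 to 605, 118 and 189 FPKM (log2FC 4.18, adjusted p = 0.0053), highest in library 244. Without library 244 the log2FC was 3.51 (adjusted p = 0.000298). With the inhibitor 3 of 70 were higher and 10 lower, against 8.47% and 9.6% of all genes, with a median of -0.23. Ifitm1, a membrane protein that restricts viral entry, fell from 415, 570.4 and 292 to 97.4, 130.4 and 67 FPKM (log2FC -2.10, adjusted p = 0.00656). Between untreated and sorted cultures 7 of 72 were lower, against 4.01% of all genes, and the other 65 were not called (24 of the 72 had an unadjusted p under 0.05). The 7 include Ifit1bl1, the 1 gene of the 72 that passed the filter through the sorted controls alone. Oas1a, which makes the RNase L activator 2-5A, stood at 12.6, 10.9 and 10.9 FPKM sorted and at 4.03, 4.38 and 3.57 untreated (log2FC -1.32, adjusted p = 0.00714; 0.0576 without control 251).

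The mean of log2(FPKM + 1) over the 35 genes describes each library as a whole. It was 3.87, 3.82 and 3.76 in the sorted controls and 4.60, 4.40 and 4.66 in β-catenin libraries 244, 255 and 262. The untreated libraries had 3.38, 3.92 and 3.40 and the inhibitor libraries 3.22, 4.09 and 3.17. All β-catenin libraries lay above all others, and the highest untreated and inhibitor libraries were those numbered 249. Library 244, with little B lineage RNA and the most NK and ILC marker RNA (3817 FPKM), lay between libraries 255 and 262. The GTPase genes averaged 5.35, 5.39 and 5.43 in the β-catenin libraries and 4.81 to 4.87 in the sorted controls, and the antigen processing genes 7.39, 7.22 and 7.36 against 7.40 to 7.47.

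**Figure D4:**
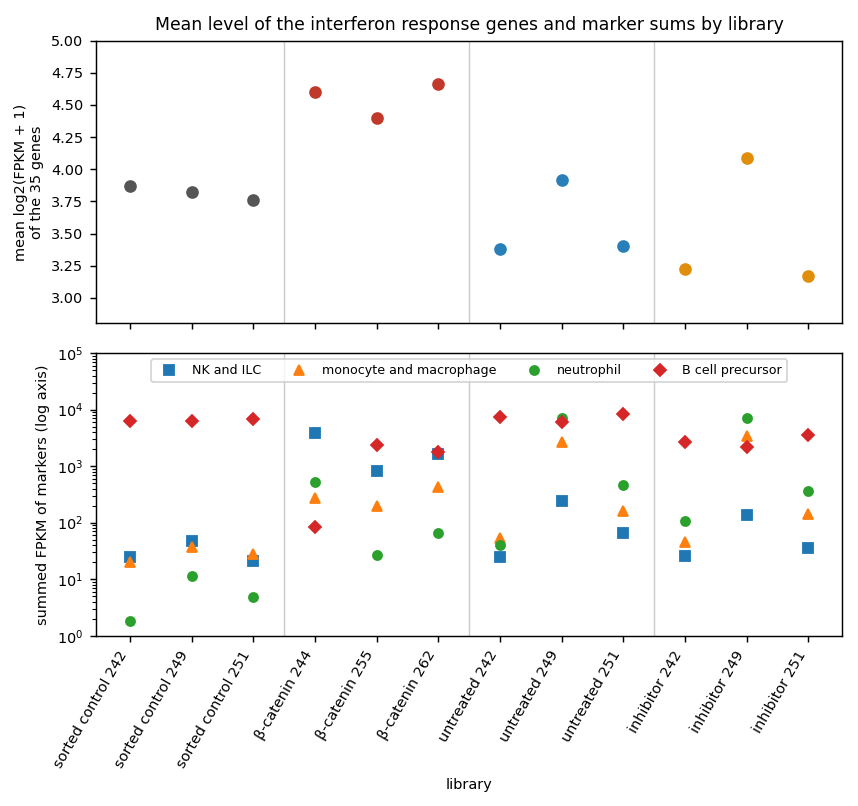
Mean log2(FPKM + 1) of the 35 interferon response genes (upper panel) and summed FPKM of 4 marker lists (lower panel, log axis) in each of the 12 libraries on the x axis. The 3 β-catenin libraries have means of 4.40 to 4.66, and both unsorted libraries numbered 249 combine the highest means of their groups (3.92 and 4.09) with neutrophil sums of 7198 and 7079 FPKM.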

How the data were processed

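Per the labels' protocols, total RNA of the 12 libraries came from Quick-RNA MicroPrep kits. The authors deposited FPKM per gene, and HISAT2, Cufflinks and HTSeq with build GRCm38 (mm10) are named, per the submitters' processing notes. Not given in the sources used here were tool versions and roles, gene lengths and the strand setting. No column of values was left out (0 columns). GENCODE M21 supplied coordinates (46488 IDs matched) and RefSeq the promoters.

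Comparisons were fitted with limma 3.58.1 (lmFit, eBayes with trend) in R 4.3.3 on log2(FPKM + 1), 2-sided. The β-catenin, inhibitor and untreated comparisons used their own 6 libraries and the difference of effects used all 12. Python 3.11.15, numpy 2.4.6, pandas 2.3.3 and matplotlib 3.10.9 did the rest. Whole fragments were recovered from the FPKM steps for 25186 genes (0 failed, relative tolerance 1e-08) and served voom as an alternative. The calls and the recovery were tested on simulated data. Unlike the real libraries, those simulated for the calls held none that stood apart.

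The 35 genes and all lists were chosen with earlier results of these data known. Values of every library were given for up to 4 called genes of each role with the largest changes, and for Irf7, Stat2, Isg15 and Irf1 always. Of the wider pathway up to 3 called genes of each list, and Ifnar1, Ifngr1, Ifng and Ifnb1, could be named. Not every gene that the rule takes is given. Other genes were named after their values were seen.

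Whether library numbers pair cultures was checked by correlating deviations from group means over 13861 genes. For the untreated and inhibitor libraries r was 0.593 (242), 0.754 (249) and 0.37 (251), all above 0.1. Between different numbers r ran from -0.638 to 0.361, with 0.361 for untreated 242 and inhibitor 251 and 0.244 for untreated 251 and inhibitor 242. Each library had its highest r with its own number, by little for inhibitor 251, and the numbers were taken as pairs. Alternatives were another pseudocount, other filters, 2 scalings, robust eBayes, voom, all libraries in the fit, the number as a block and leaving out libraries.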

Additional observations from a re-analysis of the deposited data

Results flagged for a closer look

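The β-catenin effect exceeded the inhibitor effect by the test of the difference itself for Irf7 (2.66 on the log2 scale, adjusted p = 0.0443 with limma), Oasl1 (2.55, adjusted p = 0.00312) and Ddx58 (1.94, adjusted p = 0.0265). Both effects come from separate controls, which differ in sorting and in the overnight culture.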

How the results depend on the processing

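Leaving out each library in turn gave 9 to 21 called genes in the β-catenin comparison (21 with all libraries), 3 to 8 with the inhibitor (6), 0 to 6 between untreated and sorted cultures (3) and 1 to 15 in the difference of effects (3). The library number as a replicate block gave 13 called genes with the inhibitor, 2 between untreated and sorted cultures and 3 in the difference. Untreated and sorted libraries of the same number had r of 0.151 (242), 0.124 (249) and 0.0408 (251). They were alike in whether Xist or Ddx3y was high. Without both unsorted libraries numbered 249 the count was 11 with the inhibitor and 11 in the difference, and 14 in the difference without library 244 as well, an alternative chosen after seeing the data. Between untreated and sorted cultures 0 genes were called without a filter, 0 with all 12 libraries in the fit and 0 without both libraries numbered 249 (7, 4 and 10 at an unadjusted p under 0.05, and 4 called with voom). In the difference 1 gene was called without a filter. The cause was not tested.

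Of the genes that the naming rule took, 5 single values changed sign under an alternative, all of them not called. Stat2 with stabilised β-catenin became 0.01 without library 244 (-0.16 to 0.01 over all single omissions). Irf7 with the inhibitor became 0.37 without untreated 249, 0.24 without inhibitor 242 and 0.31 without inhibitor 251 (-0.70 to 0.37), and Isg15 with the inhibitor became 0.02 without inhibitor 251 (-0.97 to 0.02). The other alternative values of these genes kept their direction, 483 on the same side of the threshold, 103 no longer past it and 7 newly past it. With 3 libraries a group and genes near 1 FPKM, small changes could not be told from the spread.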
